A study of Mus musculus with 48 samples.

Results

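Natural killer (NK) cells of the spleen were described here as the cells that the authors' deposited annotation placed under the label NK cells in that organ. There were 471 such cells among 3320 annotated spleen cells, and among 630 NK-labelled cells and 12096 annotated cells of all organs. The spleens came from male DBA1/J mice, an inbred strain that develops arthritis after immunization with collagen. Mice with collagen-induced arthritis (CIA, 6 mice, named S1, S2, S3, S5, S6 and S8) had received bovine type II collagen in complete Freund's adjuvant and a booster in incomplete adjuvant. Healthy mice (4 mice, named H3, H4, H6 and H7) had received saline instead. No genetic change was stated for either group, and the study's methods give a single age range, that of young adults, for all mice. The total arthritis score was 8 in S1, S2 and S3, 4 to 5 in S5, 3 to 4 in S6, 2 to 3 in S8 and 0 in healthy mice. Sample names carried the tag 2CIA for H3, S1, S2 and S3 and the tag CIA for the others. What the tag stands for was not stated, and it is called the experiment below. The severe and the milder CIA mice also differ in this tag, and severity and tag cannot be told apart. Organs had been frozen and thawed, and red cells of the spleen lysed, before Seq-Well, in which each cell is captured with a barcoded bead and its transcripts are counted as unique molecular identifiers (UMIs).

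NK cells are lymphocytes that kill infected or transformed cells without a rearranged antigen receptor. They read their targets through germline-encoded receptors, in mice largely of the Klr lectin family and the related Ly49 (Klra) family, and kill with granzymes and perforin released from granules. T cells share the granules and several of these receptors but carry the T cell receptor, which is made of the rearranged alpha and beta chains and the CD3 subunits.

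NK-labelled spleen cells held 321071 UMIs on 15486 genes, with a median of 589 UMIs (414 to 3094) and 386 genes per cell. The number of cells per mouse ranged from 9 in S3 to 83 in S5, and the median UMI count from 450 in S3 to 706 in H4. Gene fits and shares within the label used the 9 mice with at least 10 such cells, which left out S3. Of the 471 cells, 8 had a barcode that another library also held (135 of 13240 cells in the whole table). Replicates were separate mice.

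The label was checked against the markers that had been used to define it and against genes that had not. Values are counts per 1000000 of all UMIs of the cells of a label in a mouse (CPM), in which fewer cells with a transcript and fewer transcripts per cell cannot be told apart. *Gzma*, which encodes granzyme A (chr13:113093825-113100981 in GRCm38), stood at 576 ± 429 CPM (SD, n = 9 mice) in NK-labelled cells. Its mean was 64.6 CPM in T-labelled, 18.8 CPM in B-labelled and 27.7 CPM in monocyte-labelled cells of spleen. Means under these labels cover the mice with at least 10 cells of that label. They include S3, and those of the T label lack H4, H6, S6 and S8. *Klrk1*, which encodes the activating receptor NKG2D, stood at 180 ± 105 CPM (n = 9) against 35.8, 11.8 and 40.3 CPM under those labels. *Il18rap*, a subunit of the interleukin 18 receptor, stood at 44.4 ± 43.8 CPM (n = 9) against 1.99, 7.38 and 4.05 CPM. All 3 NK markers of the study were thus highest under the NK label. The labels were made from the same transcripts, so differences between labels are a description and were not tested.

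The label also carried the largest share of T cell receptor transcripts in the spleen. The list of *Cd3d*, *Cd3e*, *Cd3g*, *Trac*, *Trbc1* and *Trbc2* summed to 2582 ± 599 CPM (n = 9) in NK-labelled cells and to 771 ± 669 CPM (n = 6 mice with at least 10 such cells) in T-labelled cells. In the 5 mice with enough cells of both labels, the sum was higher under the NK label in 5. NK-labelled cells were 14.2% of the annotated spleen cells and held 50.1% of all T cell receptor UMIs of the spleen (788 of 1574), whereas T-labelled cells were 7.08% of cells and held 8.20% of these UMIs. B-labelled cells, 35.6% of cells, held 18.0%. NK-labelled cells also held 54.8% (701 of 1280) of the UMIs of a list of 15 NK genes, made of *Gzma*, *Il18rap* and 13 NK receptors, and 64.1% (214 of 334) of the Ly49 UMIs.

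Single members showed the same order. *Trbc2*, the constant part of a T cell receptor beta chain, stood at 807 ± 266 CPM (n = 9) under the NK label and at 206 CPM under the T label. *Trbc1* stood at 666 ± 247 against 211 CPM, *Cd3d* at 348 ± 138 against 88.5 CPM and *Trac* at 305 ± 73.1 against 131 CPM. The near-identical *Trbc1* and *Trbc2* (chr6:41538218-41548352) may share reads, so that the split between them is uncertain. Of the T cell markers of the study, *Bcl11b*, a transcription factor of the T lineage, stood at 77.3 ± 48.1 CPM (n = 9) under the NK label and at 28.9 CPM under the T label. *Il7r*, a receptor that naive and memory T cells need for survival, stood at 107 ± 81.4 against 26.7 CPM. *Lef1*, a factor of naive T cells, was alike under both labels (68.2 ± 72.6 against 67.8 CPM). The list of 18 T cell identity genes summed to 1049 ± 221 CPM under the NK label and to 396 CPM under the T label, led by *Tcf7* (169 against 36.0 CPM) and *Il7r*.

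**Figure D1:**
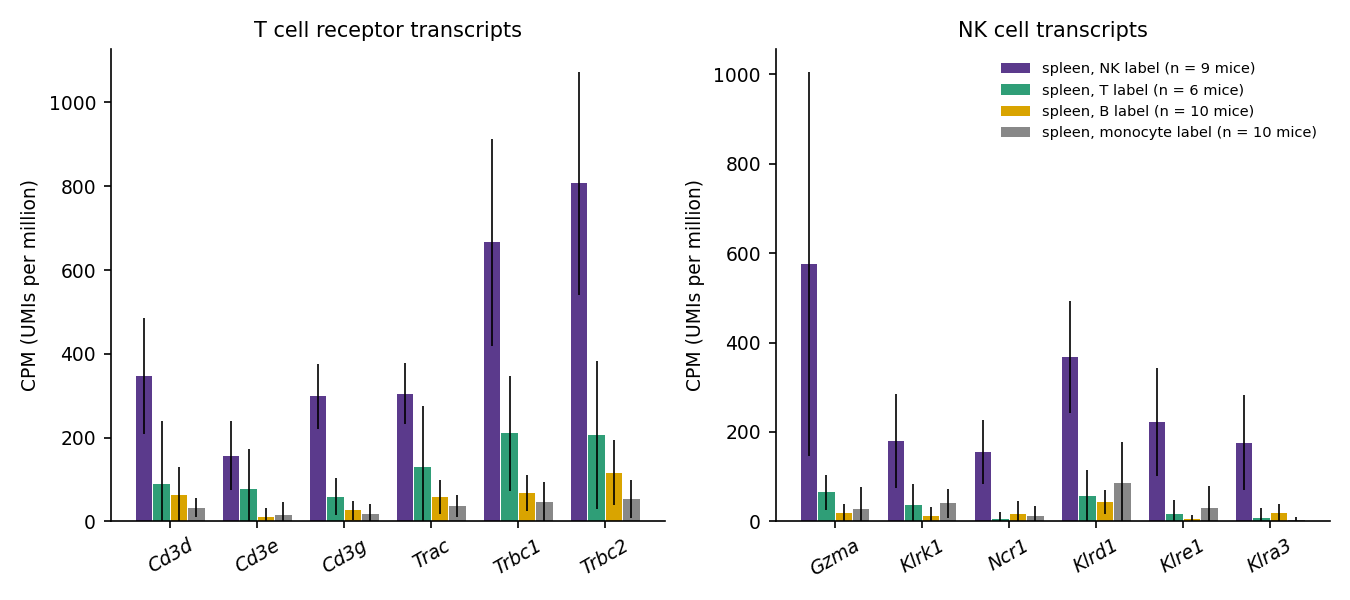
Mean CPM with SD over mice (black lines) of T cell receptor genes (left) and NK cell genes (right) under the NK, T, B and monocyte labels of spleen. The bar of the NK label is the highest for each of the 12 genes drawn, *Cd3d*, *Trac*, *Trbc1* and *Trbc2* included.

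Receptor genes of NK cells were present as a family. *Klrd1* (CD94, the shared subunit of NKG2 receptors) stood at 368 ± 126 CPM (n = 9), *Klre1* at 223 ± 121 CPM and *Ncr1* (NKp46, which T cells of the spleen largely lack) at 154 ± 71.5 CPM, with T-label means of 55.8, 15.8 and 5.96 CPM. Each was higher under the NK label in 5 of 5 mice. The 10 Ly49 genes lie together at chr6:129831154-130386874 and are close paralogs, whose reads may be split among them. They summed to 579 ± 320 CPM (n = 9) against 65.6 CPM under the T label, led by *Klra3* (176 ± 106 CPM), *Klra7* (99.5 ± 73.5 CPM) and *Klra9* (80.8 ± 68.5 CPM). The lowest Ly49 sum was 109 CPM in H6 and the highest 1044 CPM in S5, so that the level varied widely between mice of either group.

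Genes of killing and of chemokine output followed. *Ccl5*, a chemokine that attracts T cells and monocytes, was the highest of them at 2218 ± 1366 CPM (n = 9), against 208 CPM under the T label. *Xcl1*, which attracts cross-presenting dendritic cells, stood at 460 ± 270 against 219 CPM, and *Nkg7*, a granule membrane protein, at 408 ± 184 against 81.3 CPM. *Srgn*, the granule proteoglycan of most blood cells, was not higher under the NK label (1045 ± 294 CPM) than under the T (1390 CPM), B (1338 CPM) or monocyte label (1121 CPM). Among signalling genes, *Hcst* (DAP10, the adapter of NKG2D) stood at 454 ± 178 against 85.3 CPM and *Lck*, the kinase of the T cell receptor, at 314 ± 103 against 23.7 CPM. *Tyrobp* (DAP12), which myeloid cells also use, stood at 276 ± 165 CPM against 244 CPM under the T label and 813 CPM under the monocyte label. *Il2rb*, the beta chain through which interleukin 15 sustains NK cells, stood at 105 ± 71.1 CPM. *Id2* (621 ± 190 CPM), *Ets1* (463 ± 113 CPM) and *Eomes* (94.0 ± 78.3 CPM) were the leading NK transcription factors of the list besides *Irf8* (127 ± 77.8 CPM). *Cd160*, a receptor of intestinal T cells, NK cells and group 1 innate lymphoid cells, stood at 147 ± 66.8 against 38.7 CPM. Of 225 listed genes, 12 had no UMI in any NK-labelled spleen cell, among them *Gzmk*, *Gzmc*, *Lag3* and *Itga1*, which allows up to 9.34 CPM over the label.

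Markers of other cells were present under the label. The B cell list summed to 7277 CPM, against 20815 CPM in B-labelled cells, the erythroid list to 17440 CPM with a range from 600 CPM in H6 to 67725 CPM in S2, and the granulocyte list to 4002 CPM with a range from 833 CPM in H4 to 11412 CPM in S1. Of the granulocyte list, *S100a8* and *S100a9* gave most UMIs, and the secondary granule genes *Ltf* (11 UMIs over the 9 mice) and *Lcn2* (9 UMIs) few. The myeloid list summed to 924 CPM under the NK label and to 12197 CPM under the monocyte label. How far cells of these types, or free RNA, contributed was not tested.

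Cells were then sorted by which of the transcripts they held. At least 1 T cell receptor UMI was found in 300 of 471 NK-labelled cells (63.7%, Wilson 95% interval 59.3 to 67.9), and at least 1 UMI of the 15 NK genes in 184 (39.1%, 34.8 to 43.5). As a background, 15.0% of B-labelled cells, which make no T cell receptor, held a T cell receptor UMI at nearly the same depth (median 587.5 UMIs per cell), and 7.78% held an NK gene UMI. T-labelled cells reached 23.4% (18.4 to 29.2) for the T cell receptor at a higher median depth of 793 UMIs. With every cell thinned to 400 UMIs, the shares with a T cell receptor UMI were 53.0% under the NK label, 15.5% under the T label, 10.4% under the B label and 6.89% under the monocyte label. The corresponding shares for the NK genes were 32.6%, 9.46%, 5.48% and 11%, the last including *Fcgr3*, an Fc receptor that monocytes express. Both shares of the NK label thus stood well above those of B cells. UMIs of *Trac*, *Trbc1* and *Trbc2* do not show whether the gene was rearranged, and this was not tested. Intervals cover counting error only.

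T cell receptor transcripts without NK gene transcripts were the most frequent combination, in 194 cells (41.2%, Wilson 95% interval 36.8 to 45.7). NK gene transcripts alone were found in 78 cells (16.6%, 13.5 to 20.2), both kinds in 106 cells (22.5%, 19 to 26.5) and neither in 93 cells (19.7%, 16.4 to 23.6). Median depth was 586.5, 599, 647 and 546 UMIs in this order, so that cells with both kinds were the deepest. No doublets were called here, and the part of doublets in the cells with both kinds was not tested. In these cells *Trbc1* gave 88 and *Trbc2* 94 of the 262 T cell receptor UMIs. Their levels were 1112 and 1188 CPM, against 885 and 1167 CPM in cells with T cell receptor transcripts only. The rest of the list was lower with both kinds, namely *Cd3d* (316 against 595 CPM), *Cd3e* (88.5 against 282 CPM), *Cd3g* (379 against 473 CPM) and *Trac* (227 against 610 CPM). Several such UMIs per cell were common, as 198 cells (42.0%) held at least 2 T cell receptor UMIs and 126 cells (26.8%) at least 3. An NK gene UMI was found in 106 of 300 cells with a T cell receptor UMI (35.3%, 30.1 to 40.9) and in 78 of 171 cells without (45.6%, 38.3 to 53.1). These cells were pooled over mice, and a difference between both shares was not tested. Of the coreceptors, looked at after the values were seen, *Cd8a* or *Cd8b1* without *Cd4* was found in 27 of 471 cells and *Cd4* alone in 9. Of these, 19 and 4 were among the cells with T cell receptor transcripts only, and 1 and 1 among those with NK gene transcripts only.

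**Figure D2:**
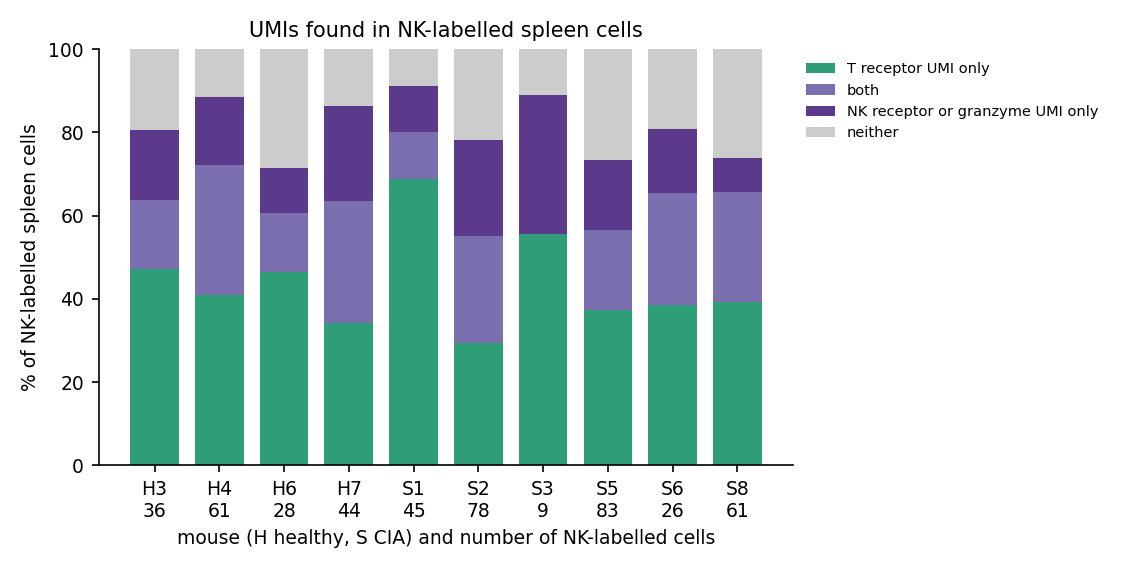
Percent of NK-labelled spleen cells of each mouse with transcripts of the T cell receptor list only, the NK gene list only, both or neither, at full depth. Cells with a T cell receptor transcript, alone or with NK genes, make up 55.1% (S2) to 80% (S1) of the label, and S3 is shown although it held 9 cells.

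Genes that were not used for this sorting differed between cells with T cell receptor transcripts only and cells with NK gene transcripts only. The values below are CPM over all cells of a class, and the number of mice shows how often the direction held within a mouse. The Ly49 genes gave 9 UMIs (68.7 CPM) in the T receptor cells and 114 UMIs (2112 CPM) in the NK gene cells, and were higher in the NK gene cells in 8 of 9 mice. *Ccl5* stood at 732 CPM in T receptor cells and 5077 CPM in NK gene cells, higher in the latter in 9 of 9 mice. *Xcl1* did so in 9 of 9 mice as well (76.3 against 1575 CPM), and *Nkg7* (122 against 889 CPM) and *Ccl4*, another chemokine (153 against 723 CPM), in 8 of 9. *Tyrobp*, the adapter of activating Ly49 receptors, stood at 76.3 against 704 CPM and was higher in the NK gene cells in 6 of 9 mice. The granule genes without *Gzma* summed to 1427 against 2538 CPM, higher in the NK gene cells in 7 of 9 mice. Some members of the granule and cytokine lists went the other way on few UMIs, such as *Gzmm* (99.2 against 37.1 CPM), *Lamp1* (83.9 against 55.6 CPM) and *Tnf* (53.4 against 37.1 CPM).

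The reverse was seen for genes of T cells. The T cell identity list stood at 1412 against 408 CPM, higher in T receptor cells in 8 of 9 mice, and *Bcl11b* gave 19 UMIs against 1. *Lck* and *Tcf7*, which NK and T cells both express, differed less between the classes (366 against 259 CPM for *Lck*, 175 against 148 CPM for *Tcf7*). They were higher in T receptor cells in 7 and 6 of 9 mice. Cells with both kinds of transcripts lay nearer in CPM to the NK gene cells for *Ccl5* (3980 CPM) and *Nkg7* (821 CPM), and near the middle between the classes for *Xcl1* (783 CPM), the Ly49 genes (986 CPM) and the T cell identity list (859 CPM). Cells with neither kind held 30191 CPM of *Hbb-bs*, a haemoglobin chain, against 15138 CPM in T receptor cells and 11414 CPM in NK gene cells. Cells of both classes were found in each of the 9 mice, down to 3 NK gene cells in H6. This follows in part from the sorting, as a single UMI places a cell in a class. The Ly49 and T cell identity lists, not used for the sorting, kept their direction in 8 of 9 mice each. The classes were cut from the same cells, so these differences were not tested.

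**Figure D3:**
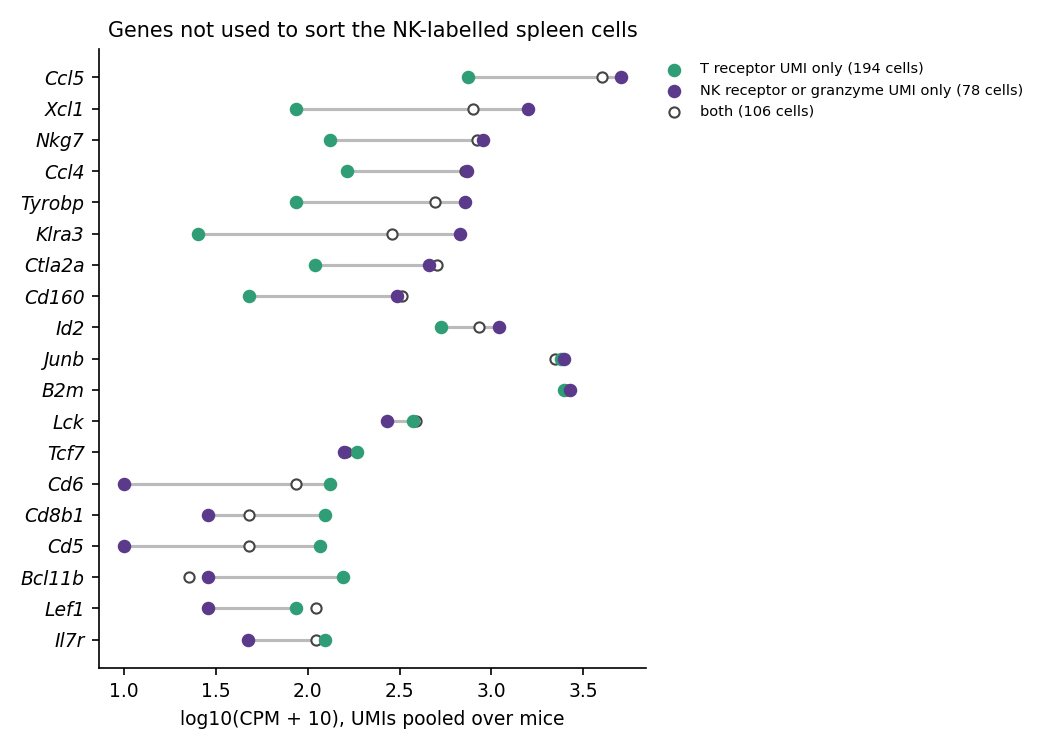
Levels pooled over mice, drawn as log10(CPM + 10), in NK-labelled spleen cells with T cell receptor UMIs only, with NK gene UMIs only and with both, for genes that did not define the classes. *Ccl5*, *Xcl1*, *Nkg7* and *Klra3* lie to the right in the NK gene cells, *Bcl11b* lies to the right in the T receptor cells, *Lef1* is lower in the NK gene cells (18.5 CPM) than in the T receptor cells (76.3 CPM) and in those with both (101 CPM), and *Junb* and *B2m* are close in the 3 classes.

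The amount and the make-up of the label were compared between CIA and healthy mice. The NK label took 21.8%, 12.4%, 21.1% and 20.3% of annotated spleen cells in H3, H4, H6 and H7, and 10.1%, 8.56%, 5.84%, 23.1%, 17.4% and 20.8% in S1, S2, S3, S5, S6 and S8. The lowest values were those of the 3 CIA mice of the experiment 2CIA, and the other 3 CIA mice lay within or above the healthy range. The mean was 18.9% ± 4.37 (SD, n = 4) in healthy and 14.3% ± 7.11 (n = 6) in CIA mice, a difference of -4.58 percentage points (two-sided exact permutation test, p = 0.238, adjusted over the 3 shares compared 0.714, smallest p possible 0.00476). Within the experiment CIA alone, the difference was 2.55 points in the other direction (exact permutation p = 0.6, smallest possible 0.1). In 2CIA there was only 1 healthy mouse. Granulocytes made up 1.29% ± 1.00 of spleen cells in healthy (n = 4) and 8.00% ± 6.47 in CIA mice (n = 6), and without granulocytes, neutrophils and erythrocytes in the denominator the difference was -3.55 points (exact permutation p = 0.371). Of NK, T and B labels together, the NK label took 25.4% in healthy and 24.3% in CIA mice.

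The share of NK-labelled cells with a T cell receptor UMI, at 400 UMIs per cell, was 56.8%, 59.1%, 55.0% and 52.8% in H3, H4, H6 and H7. It was 71.5%, 45.2%, 44.7%, 46.7% and 54.4% in S1, S2, S5, S6 and S8. S1 stood above all healthy mice and S2, S5 and S6 below them, so that the groups overlapped. The means were 55.9% ± 2.68 (n = 4) and 52.5% ± 11.3 (n = 5), a difference of -3.43 points (two-sided exact permutation p = 0.651, adjusted 0.873). Without S1 the difference was -8.18 points (exact permutation p = 0.0571, smallest possible 0.0286), and unthinned it was -0.55 points.

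The share with an NK gene UMI was 26.3%, 39.0%, 20.8% and 40.8% in H3, H4, H6 and H7 and 19.5%, 43.1%, 29.5%, 30.5% and 30.3% in S1, S2, S5, S6 and S8. The ranges covered each other, with means of 31.7% ± 9.70 (n = 4) and 30.6% ± 8.39 (n = 5) and a difference of -1.17 points (two-sided exact permutation p = 0.873, adjusted 0.873). Its direction turned without H4 (1.23 points), without H7 (1.86 points) and without S1 (1.6 points). In CPM, the T cell receptor list stood at 2736 ± 374 in healthy (n = 4) and 2458 ± 755 in CIA mice (n = 5), and the NK list at 1949 ± 655 and 2055 ± 1065. A difference in either kind of transcript was not detectable with these mice.

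Gene by gene, CIA was compared with healthy on UMIs summed over NK-labelled spleen cells of each mouse. The transcripts furthest apart were not those of NK or T cells but 2 calgranulins and an interferon-induced gene. *S100a8*, a subunit of the calprotectin that neutrophils carry in bulk, stood at 832, 653, 436 and 912 CPM in H3, H4, H6 and H7 and at 8118, 7892, 2203, 2173 and 1845 CPM in S1, S2, S5, S6 and S8. Its partner *S100a9* lies beside it (chr3:90668978-90695721 for both) and stood at 97.9, 135, 327 and 473 CPM in healthy and 2329, 2250, 580, 1177 and 508 CPM in CIA mice, in the same order of mice. Every CIA mouse lay above every healthy mouse for both genes, and S1 and S2, of score 8, were highest. *Ifi27l2a*, induced by type I interferon (chr12:103442167-103443680), stood at 343, 270, 109 and 439 CPM in healthy and 2628, 1235, 977, 906 and 722 CPM in CIA mice, also without overlap. *Klf6*, an early response transcription factor, stood at 1322, 856, 545 and 574 CPM in healthy and lower at 499, 535, 348, 226 and 241 CPM in CIA mice.

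None of the 421 genes tested passed an adjusted p of 0.05 in edgeR's quasi-likelihood test (0% called), while 11 genes (2.61%) had an unadjusted p under 0.05 and DESeq2 called 3 (0.713%). The 3 called by DESeq2 were *S100a8* (edgeR log2 difference CIA minus healthy 2.61, SE 0.56, adjusted p = 0.265, DESeq2 adjusted p = 0.00153), *Ifi27l2a* (2.07, SE 0.49, edgeR adjusted p = 0.281, DESeq2 0.0120) and *S100a9* (2.38, SE 0.64, edgeR adjusted p = 0.467, DESeq2 0.0420). Of all genes tested, the CIA mice were all above the healthy mice in 4 (0.95%), namely these 3 and *Psmb8*, an immunoproteasome subunit named after its values were seen. They were all below in 2 (0.475%), *Klf6* and *Rbm25*, a splicing factor. *Klf6* differed by -1.18 (SE 0.39, edgeR adjusted p = 1.00) and *Rbm25* by -0.80 (SE 0.29). The other genes of smallest unadjusted p were *Gm24407* (-1.21), *Rpl13a-ps1* (1.85), the antibody light chain *Igkc* (-1.0), *Tpm3* (-0.72) and *Rbm39* (-0.70), of which the small RNA gene, the ribosomal pseudogene and the antibody gene may share reads with copies. Across the alternatives tried, the adjusted p of *S100a8* ranged from 2.2e-08 to 0.991. Within the experiment CIA alone, *S100a8* differed by 1.47, *Ifi27l2a* by 1.47, *S100a9* by 1.18 and *Klf6* by -1.43, so that the 3 higher genes were less far apart there than over all mice.

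**Figure D4:**
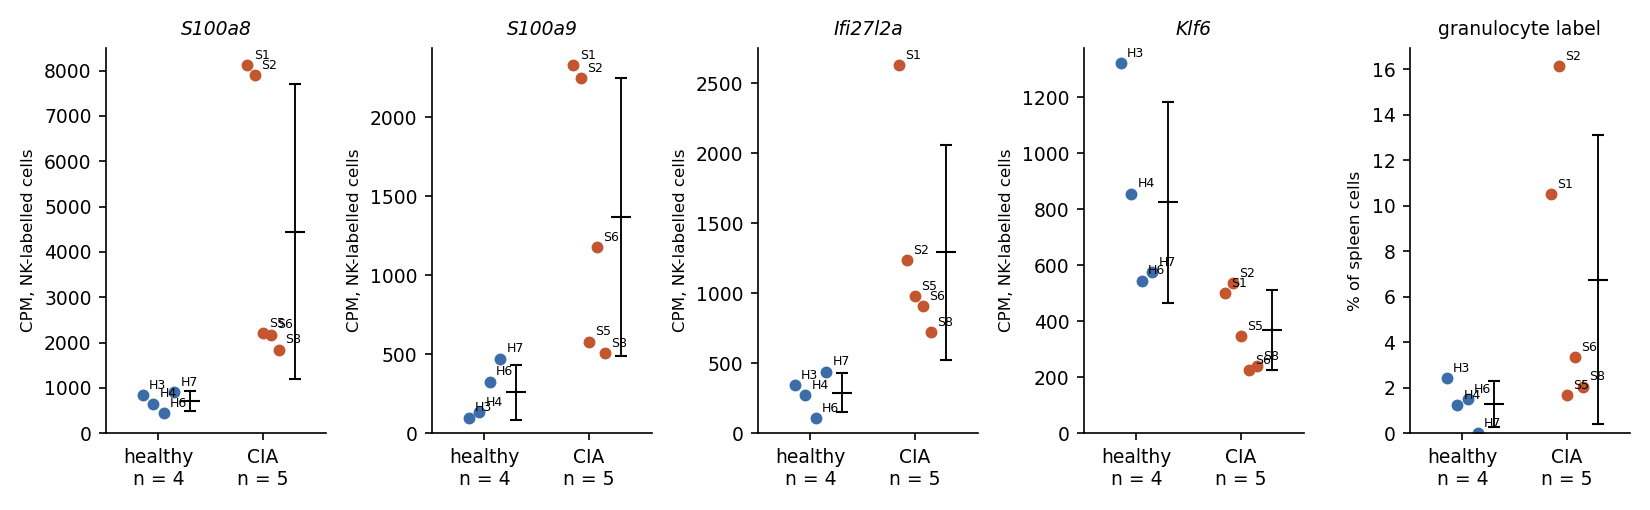
CPM of *S100a8*, *S100a9*, *Ifi27l2a* and *Klf6* in NK-labelled spleen cells and, in the last panel, the percent of spleen cells with the granulocyte label, a point per mouse with the mean and SD beside it (4 healthy and 5 CIA mice). CIA and healthy mice are apart for the 4 genes. Among the mice drawn, which leave out S3, S1 and S2 are highest for *S100a8*, *S100a9* and the granulocyte label.

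The genes that make NK and T cells overlapped between CIA and healthy mice. Of the 225 listed genes, 48 were deep enough to be tested. *Gzma* stood at 245, 495, 327 and 946 CPM in healthy and 233, 1254, 447, 90.6 and 1150 CPM in CIA mice, a log2 difference of 0.26 (SE 0.64). *Ccl5* stood at 783, 2296, 4579 and 2635 CPM in healthy and 898, 4186, 1723, 1313 and 1551 CPM in CIA mice (-0.46, SE 0.51). Both spread more between mice of a group than between the groups. *Nkg7* differed by 0.22 (SE 0.45), *Klrd1* by -0.05, *Xcl1* by 0.08 (SE 0.55), *Ccl4* by -0.28 (SE 0.52), *Lck* by 0.43 (SE 0.36) and *Hcst* by 0.03 (SE 0.43). Of the 6 T cell receptor genes, 5 were tested, with *Cd3d* at 0.33, *Cd3g* at 0.16, *Trac* at -0.16, *Trbc1* at -0.34 and *Trbc2* at -0.47, and a median of -0.16. The median over all 421 genes was 0.00. No Ly49 gene, T cell marker of the study, cytokine receptor or T cell identity gene was deep enough to be tested.

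Other groups are given by counts. All 7 immediate early genes tested but *Ier2* (0.02) were below 0, with a median of -0.67, and *Fosb* had an unadjusted p of 0.0470 in edgeR (-1.03, SE 0.46). The 3 class I antigen presentation genes tested, *B2m*, *H2-D1* and *H2-K1*, lay between 0.19 and 0.41. The 4 B cell genes tested were below 0 (median -0.75) and the 3 erythroid genes above 0 (median 1.48). Of 15 interferon response genes, *Ifi27l2a* and *Ly6e* (0.33, SE 0.48) were tested, and the list summed to 654 to 1216 CPM in healthy and 1585 to 4159 CPM in CIA mice, mostly through *Ifi27l2a*. The granulocyte list summed to 833 to 1385 CPM in healthy and 2433 to 11412 CPM in CIA mice. Its other members, the granule genes *Camp* (72 UMIs), *Ngp* (23), *Ltf* (11) and *Lcn2* (9), gave few UMIs over these 9 mice. Granulocyte-labelled cells made up 2.42%, 1.22% and 1.50% of the spleen cells of H3, H4 and H6, and none of the 217 of H7, which allows a share of up to 1.38%. They made up 10.5%, 16.1%, 1.67%, 3.36% and 2.05% in S1, S2, S5, S6 and S8. In S3, which had too few NK-labelled cells for a value of *S100a8*, the share was 14.3%. Among the other mice, S1 and S2 were highest in both this share and *S100a8*. H3 lay above S5 and S8 in the share and below them in *S100a8* (832 against 2203 and 1845 CPM), and H7 had the highest *S100a8* of the healthy mice (912 CPM). The part of this share in the values of *S100a8* and *S100a9* was not tested.

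*S100a8* and *Ifi27l2a* were also apart in other labels of the same spleens. *S100a8* differed by 3.01 (SE 0.61, edgeR adjusted p = 0.10) in B-labelled cells and by 3.61 (SE 0.76, edgeR adjusted p = 0.0204) in monocyte-labelled cells. *Ifi27l2a* differed by 2.15 (SE 0.44, edgeR adjusted p = 0.10) and 3.56 (SE 0.45, edgeR adjusted p = 6.8e-04). *Klf6* differed by -1.01 and -0.48, and its CIA and healthy mice overlapped under the B, monocyte and T labels. *S100a9* differed by 2.11 (SE 0.66, edgeR adjusted p = 0.550) and 2.92 (SE 0.71, edgeR adjusted p = 0.0354), with overlap under the B label. In T-labelled cells, *S100a8* averaged 606 CPM in 2 healthy and 7180 CPM in 4 CIA mice. A higher level of *S100a8* in CIA mice was thus not limited to the NK label. The B and monocyte values include S3, which had too few NK-labelled cells to enter the NK fit. In edgeR, 0 of 1252 genes passed between CIA and healthy mice in B-labelled cells and 29 of 456 in monocyte-labelled cells.

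Whether the difference between CIA and healthy was particular to NK-labelled cells was tested as an interaction of label and disease, with the mouse as a block. Against B-labelled cells, 0 of 1013 genes passed in edgeR (0%), with 41 (4.05%) at an unadjusted p under 0.05 and 0 in DESeq2. The effect in NK-labelled minus that in B-labelled cells was 0.16 (SE 0.22) for *S100a8*, 0.90 (SE 0.39, edgeR adjusted p = 0.997) for *S100a9*, -0.27 (SE 0.38) for *Ifi27l2a* and -0.26 (SE 0.34) for *Klf6*. None of these 4 genes was thus shown to differ more under 1 of the labels, which does not show that the effects were equal.

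Against monocyte-labelled cells, 3 of 640 genes passed in edgeR (0.469%), with 64 (10%) at an unadjusted p under 0.05. All 3 also passed between CIA and healthy mice in monocyte-labelled cells alone (edgeR adjusted p = 0.00272, 6.8e-04 and 0.0159 for *Iglc2*, *Igkv1-135* and *Wfdc17*), where 29 of 456 genes passed. *Iglc2*, an antibody light chain, stood at 7363 ± 6848 CPM in healthy (n = 4) and 726 ± 251 CPM in CIA mice (n = 6) under the monocyte label, and at 949 ± 308 and 701 ± 270 CPM under the NK label, and its log2 difference CIA minus healthy was -0.49 under the NK and -3.65 under the monocyte label, so that it was nearer to 0 under the NK label (NK minus monocyte 2.9, SE 0.44, edgeR adjusted p = 0.00226). *Igkv1-135*, an antibody variable segment, stood at 3722 ± 3407 and 18.5 ± 42.6 CPM under the monocyte label and at 19.7 ± 23.2 and 35.4 ± 29.2 CPM under the NK label (8.71, SE 1.39, edgeR adjusted p = 0.00226). *Wfdc17*, a secreted protein of activated macrophages, stood at 222 ± 133 and 1656 ± 1052 CPM under the monocyte label and at 239 ± 142 and 216 ± 119 CPM under the NK label (-2.42, SE 0.52, edgeR adjusted p = 0.0440). *Igkv1-135* and *Wfdc17* did not pass the filter on low counts in NK-labelled cells alone and were tested here through the monocyte-labelled cells, so that their values describe those cells and not a difference between CIA and healthy NK-labelled cells. Without the block, none of the 3 passed (edgeR adjusted p = 0.0864, 0.0550 and 0.209). The difference of *Wfdc17* was -2.82 to -1.90 without 1 mouse, and it did not pass without H3, H4, H6, S2, S5, S6 or S8. *Ifi27l2a* was lower by 1.63 in its effect in NK-labelled than in monocyte-labelled cells without passing (-1.63, SE 0.45, edgeR adjusted p = 0.158).

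The label was also found in muscle, with 142 cells, and rarely in lung (8), joint (6) and skin (3). In muscle, 4 mice (H6, H7, S2 and S8) had at least 10 such cells. A T cell receptor UMI was found in 99 of these 142 cells (69.7%, Wilson 95% interval 61.7 to 76.7) and an NK gene UMI in 26 (18.3%, 12.8 to 25.5), against 63.7% and 39.1% in spleen. At 400 UMIs per cell, the shares were 62.6% and 13.6% in muscle against 53.0% and 32.6% in spleen. The T cell receptor list summed to 3829 ± 885 CPM in muscle (n = 4) and the NK list to 515 ± 733 CPM, most of it from S8.

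*Gzma* stood at 327, 946, 1254 and 1150 CPM in the spleen of H6, H7, S2 and S8, and in their muscle at 425 CPM in S8 and at 0 in H6, H7 and S2, whose depth allows up to 140, 319 and 135 CPM. Its level was thus higher in spleen in all 4 mice (log2 difference spleen minus muscle 2.24, SE 0.86, edgeR adjusted p = 0.353). *Ccl5* stood at 4579, 2635, 4186 and 1551 CPM in spleen and at 140, 0, 45.2 and 2222 CPM in muscle (1.87, SE 0.83, edgeR adjusted p = 0.433). Muscle of S8 stood apart from the other 3, and without this mouse the difference was 5.26. In the muscle of H6, H7 and S2, *Ccl5* did not exceed the level of 3 UMIs (140, 319 and 135 CPM). It passed the filter on low counts through the spleen cells there, so that its call describes those cells. *Gzma*, at 0 in the same 3 muscles, was likewise tested through the spleen cells. Without S8 edgeR called 4 of 367 genes, among them *Ccl5*, *Gadd45b* (-2.08) and *mt-Rnr2* (1.39). *Ccl4* (2.15, SE 0.69), *Xcl1* (1.72, SE 0.73) and *Klrd1* (1.18, SE 0.53) were higher in spleen in the fit without passing.

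Of the 5 T cell receptor genes tested, all but *Trbc1* lay the other way. *Trbc1*, which may share reads with *Trbc2*, was higher in spleen in 3 of 4 mice, with a log2 difference of 0.03 (SE 0.37). *Trbc2* was higher in muscle in 4 of 4 mice (2006, 1805, 993 and 850 CPM against 1145, 676, 608 and 695 CPM), a log2 difference of -0.55 (SE 0.28, edgeR adjusted p = 0.502). *Cd3g* (-0.61, SE 0.38) and *Cd3d* (-0.47, SE 0.37) had the same sign, and the 5 tested members a median of -0.47 against 0.06 over all 483 genes. In edgeR, 0 of 483 genes passed (0%), with 54 (11.2%) at an unadjusted p under 0.05, whereas DESeq2 called 4 (0.828%). These were *Gadd45b*, a stress-induced gene (-1.87, SE 0.43, edgeR adjusted p = 0.171, DESeq2 0.0238), *Snord104*, a small nucleolar RNA (-1.91, DESeq2 adjusted p = 0.0388), *Dapl1* (-1.61, DESeq2 adjusted p = 0.0494) and the mitochondrial ribosomal RNA *mt-Rnr2* (0.96, DESeq2 adjusted p = 0.0388). With the mouse as a block, 0 of 332 genes passed in edgeR. The organs had been dissociated differently, and the part of this in the differences was not tested.

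**Figure D5:**
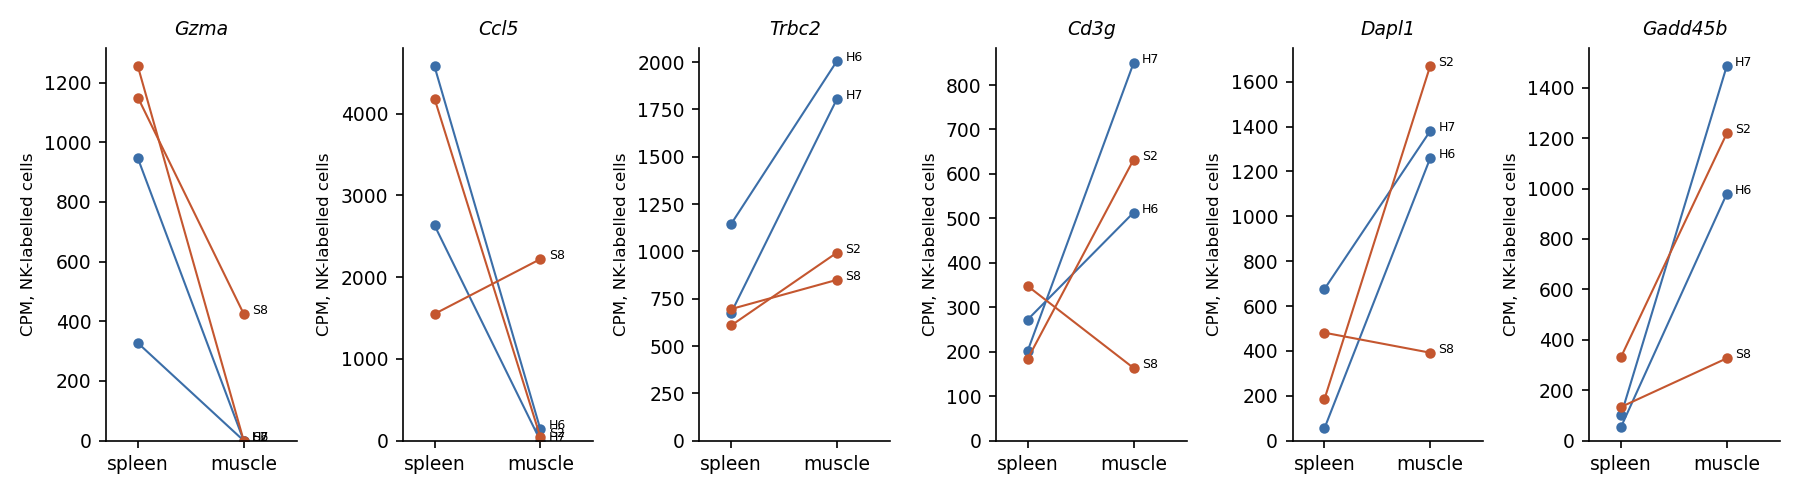
CPM in NK-labelled cells of spleen and muscle, a line per mouse (H6 and H7 healthy in blue, S2 and S8 CIA in orange). *Gzma* is higher in the spleen of all 4 mice and *Trbc2* in the muscle of all 4, while the muscle of S8 stands apart for *Ccl5*, *Cd3g*, *Dapl1* and *Gadd45b*.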

How the data were processed

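Single-cell transcripts of spleen and, for 1 comparison, muscle were analysed. The authors made UMI counts per gene and cell with the Drop-seq protocol and STAR against GRCm38, and deposited these raw counts, 34586 genes by 13240 cells, with a table of cell labels, neither of which was normalized here before summing. The labels' processing notes name GRCh38 and mm9 instead, without a role. The counts of 4654 cell columns, those of joint, lung and skin, were not used, and of these organs only the cell labels and cell barcodes were counted. Per the study's methods, the authors removed cells with very high transcript counts because these may be duplicates, and no doublets were called here. Members of the label and all gene lists were chosen with earlier results of these data known.

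Counts of NK-labelled cells were summed per mouse (18345 to 60367 UMIs in the 9 mice with at least 10 such cells) and fitted in R 4.3.3 with edgeR 4.0.16 (quasi-likelihood F-test, TMM factors, filterByExpr, Benjamini-Hochberg adjustment over all genes tested, threshold 0.05), with DESeq2 1.42.0 as the alternative tool. All p-values across genes are from these tools. The standard error of a log2 difference is its size divided by the root of F. Levels are CPM over all UMIs of the cells. Shares were tested over mice by exact permutation, two-sided. Shares at 400 UMIs are the exact expected shares after thinning, and no cell had fewer UMIs. Python 3.11.15 with numpy 2.4.6, scipy 1.17.1 and pandas 2.3.3 was used for the rest. The scripts were tested on simulated data.

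Both labels, or both organs, of a mouse come from 1 animal. The correlation of the deviations of a mouse from its group mean was 0.303 to 0.767 between NK and B labels and 0.223 to 0.694 between NK and monocyte labels, and the mouse was a block in these fits. Between spleen and muscle it was 0.0538 to 0.287, and the block was an alternative.

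The genes named were those past the threshold in edgeR or DESeq2 (at most 5 per direction), the 10 of smallest p in CIA against healthy, the study's markers, and in each list the up to 4 members highest in NK-labelled spleen cells. *Psmb8*, the coreceptors and a few further members of the lists were named in addition, after their values were seen. *Itgam* was not analysed here, and a few members of the lists are not reported here. Also tried were DESeq2, library sizes alone, RLE factors, no filter on low counts, 5 or 20 cells per mouse, the experiment as a term or the experiment CIA alone, the mouse block or none, cells without T cell receptor UMIs or with NK gene UMIs, unthinned cells or 200 UMIs, other denominators, and leaving out each mouse. Gene positions are those of GENCODE vM21 on GRCm38.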

Additional observations from a re-analysis of the deposited data

Results flagged for a closer look

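In 66 groups of mice examined, 4 held a mouse far from the others by Dixon's criterion at its 95% level, which flags some groups by chance alone. These were the NK share of spleen cells in the healthy mouse H4 (12.4%, against 20.3% to 21.8% in the other 3), *Ifi27l2a* in the CIA mouse S1 (2628 CPM, against 722 to 1235 CPM in the other 4), *Bcl11b* in S1 (133 CPM, against 18.4 to 49.7 CPM) and *Ccl5* in the CIA mouse S2 (4186 CPM, against 898 to 1723 CPM).

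For NK-labelled against monocyte-labelled cells, 3 genes passed edgeR's interaction test of label and disease with the mouse as a block. None passed without the block, and *Wfdc17* passed under 5 of 14 alternatives. The NK minus monocyte value was 8.71 for *Igkv1-135* and 2.9 for *Iglc2* (edgeR adjusted p = 0.00226 for each) and -2.42 for *Wfdc17* (edgeR adjusted p = 0.0440). *Igkv1-135* and *Wfdc17* did not pass the filter on low counts in NK-labelled cells alone and were tested through the monocyte-labelled cells, so that only *Iglc2* was measured deeply enough for a fit under both labels, at -0.49 (SE 0.31) under the NK and -3.65 (SE 0.55) under the monocyte label. The healthy monocyte-labelled cells ranged from 567 to 7919 CPM for *Igkv1-135* and from 1471 to 17227 CPM for *Iglc2*, so that a few of those mice carried most of both antibody transcripts.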

How the results depend on the processing

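In CIA against healthy, edgeR called 0 genes under each normalization, each minimum of cells and each restriction of cells, with the experiment as a term, within the experiment CIA alone and without any 1 mouse (0 to 0). The restrictions of cells left fewer genes and mice. Cells without a T cell receptor UMI gave 147 tested genes and lacked S1 and S6, and cells with an NK gene UMI gave 226 and lacked H6. DESeq2 called 3 of 421 genes and the fit with no filter on low counts 15 of 15444, a smaller share. The replicate block with at least 5 cells per mouse, chosen after seeing the data, called 6 of 434 genes (*Hba-a1*, *Hbb-bs*, *Hbb-bt*, *Lyz2*, *S100a8* and *S100a9*), although equal numbers mark different animals. No paired analysis was possible because, with at least 10 cells, the groups share only 1 mouse number. Directions turned for *Igkc* in the replicate block (0.073), for *Ccl5* in cells without a T cell receptor UMI (0.26) and in cells with an NK gene UMI (0.17), for *Gzma* without S2 and within the experiment CIA alone (-0.22), and for *Nkg7* without H6. Without 1 mouse, *Gzma* ranged from -0.19 to 0.68 and *Nkg7* from -0.037 to 0.74. For NK against B labels, no filter gave 4 calls of 19563 genes. Leaving out a mouse gave 0 to 3 (H4 2 of 1091, H6 1 of 1267, H7 3 of 1103). For NK against monocyte labels, plain library size gave 5 calls of 640 genes, no filter 8 of 18799 and no replicate block 0 of 640. Leaving out a mouse gave 2 to 5 calls, of 544 to 786 genes. *Wfdc17* passed under 5 of 14 alternatives. For spleen against muscle, DESeq2 gave 4 calls of 483 genes, no filter 11 of 16342 and the replicate block 0 of 332. Leaving out a mouse gave 0 to 4, the most without S8 (4 of 367). The NK share of spleen cells turned to 2.55 points within the experiment CIA alone and was -6.74 to -2.88 without 1 mouse. The T cell receptor share was -8.18 to -1.49 and the NK gene share -4.80 to 1.86 without 1 mouse, and both kept their direction in the other alternatives. The cause of these changes was not tested. Depth limited the gene tests to 421 of 15486 genes detected under the label, so that most NK receptors and every Ly49 gene could not be tested.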
